A study of Homo sapiens with 6 samples.

Results

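The DEAD-box and DEAH-box RNA helicases were described in HT1080, a fibroblast-like line from a human fibrosarcoma. Members were taken from gene symbols that begin with DDX or DHX followed by a number and at most 1 letter. Of the 35820 rows in the deposited counts, 50 were members, and 2 more matching symbols (DDX12P and DDX12B), pseudogenes in GENCODE, were left out. DDX1, DDX21, DDX28, DDX53 and DDX58 are not analysed here. Total RNA was sequenced after ribosomal RNA depletion in 3 libraries of wild-type (WT) cells and 3 libraries of a TOP3B knockout of the same line. The knockout carries a CRISPR edit made with a guide RNA against exon 2 of TOP3B, the gene of topoisomerase III-beta, and the series text names 1 knockout line (E2-2), so the groups differ by that line as well as by the edit. Both groups were grown in the same medium with serum and antibiotics, and no other treatment is given. The question posed is what TOP3B does to R-loops, where RNA pairs with a DNA strand, and to transcription.

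These helicases use ATP to part short RNA duplexes and to remodel RNA-protein complexes. The DEAD-box proteins tend to open a helix locally without moving along it, whereas the DEAH-box proteins pull on a single strand from its 3′ side. Between them they serve nearly every step of an RNA's life, from splicing and export to ribosome assembly and translation, and several are known to act on R-loops, the structures on which topoisomerase III-beta also works.

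Library totals lay between 17919112 and 20475280 estimated counts. Whether replicates were grown separately is not stated, so the p-values speak of the spread among these libraries, which may be technical. In bulk RNA, fewer cells of a kind and less RNA per cell cannot be told apart. Knockout replicate 3 lay apart: it was the highest or the lowest of the 6 libraries in 56.4% of the 13965 genes tested and in 32 of the 46 members tested, so the calls and the medians of the gene groups are given with and without it. TOP3B itself was at 30.5, 19.1 and 23.1 CPM (counts relative to library sizes scaled by the TMM method) in WT and at 20.02, 19.3 and 18.5 CPM in the knockout (log2 fold change -0.33 ± 0.19 SE; not called by edgeR's quasi-likelihood test, adjusted p = 0.342). A small edit need not remove a transcript, so this does not check the labels. The series text names the colon line HCT116 once for the WT cells. Over 11 colon epithelial markers the summed level was 6.79 to 7.48 CPM in WT and 5.90 to 9.57 CPM in the knockout, with CDX2, KRT20 and GPA33 at 0 in all libraries, while 12 mesenchymal markers summed to 17468 to 18814 and 15689 to 16484 CPM, without overlap. VIM (mean 11666 CPM in WT and 11525 in the knockout) and SPARC (5727 and 3445 CPM) made up most of the mesenchymal sum. CDH2, TWIST1, S100A4 and PDGFRB had means below 10 CPM in both groups, and THY1 had 1 count in all libraries together. Of the 11 mesenchymal markers tested, SPARC and LOX fell and CDH11 rose, where 7.84% of all genes tested were called. The part of this shift in the results below was not tested.

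As a family the helicases stayed close to their WT levels. The 50 members summed to 5601, 5695 and 5699 CPM in WT replicates 1 to 3 and to 5638, 5631 and 5830 CPM in knockout replicates 1 to 3, and the groups overlapped. Of the 50, 46 passed the filter on low counts. DDX11 rose and DDX19B fell, and for the other 44 edgeR gave an adjusted p above 0.05. These 2 calls are 4.35% of the tested members, where 7.84% of all genes tested were called (3.21% higher and 4.63% lower). Of the tested members 38 had a log2 fold change smaller than 0.5 in size. Their median was 0.14, against 0.05 over all genes tested, and 0.02 against 0.01 without knockout replicate 3. In 13 members (28.3%) the knockout values did not overlap the WT values, 9 higher and 4 lower, as in 33.6% of all genes (16.5% higher and 17.1% lower). An unadjusted p under 0.05 was found in 10 members and in 24.7% of all genes. Both calls needed every library except knockout replicate 3: in the 5 fits that left out another library no member passed, and of all genes 1.94%, 1.55% and 1.78% were called without WT replicates 1, 2 and 3 and 2.71% and 2.50% without knockout replicates 1 and 2. Without knockout replicate 3, 5 members were called (DDX11, DDX46 and DHX15 higher, DDX19B and DDX39B lower), where 13.2% of genes were (5.39% higher and 7.84% lower). DESeq2 called 4 members (DDX11, DDX46 and DDX51 higher, DDX19B lower) and 15.7% of all genes. With limma-voom (7.98% of genes called), upper quartile scaling (7.96%) and no filter (4.02%) DDX11 alone was called. With DESeq2's size factors in edgeR (8.09%) and a filter of 1 CPM in 3 libraries (9.01%) the 2 calls were kept. DDX11 and DDX46 were called with library size alone (7.99%), log2(RPKM + 0.1) (7.51%) and log2(RPKM + 1) (7.74%), the last also calling DHX40.

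**Figure D1:**
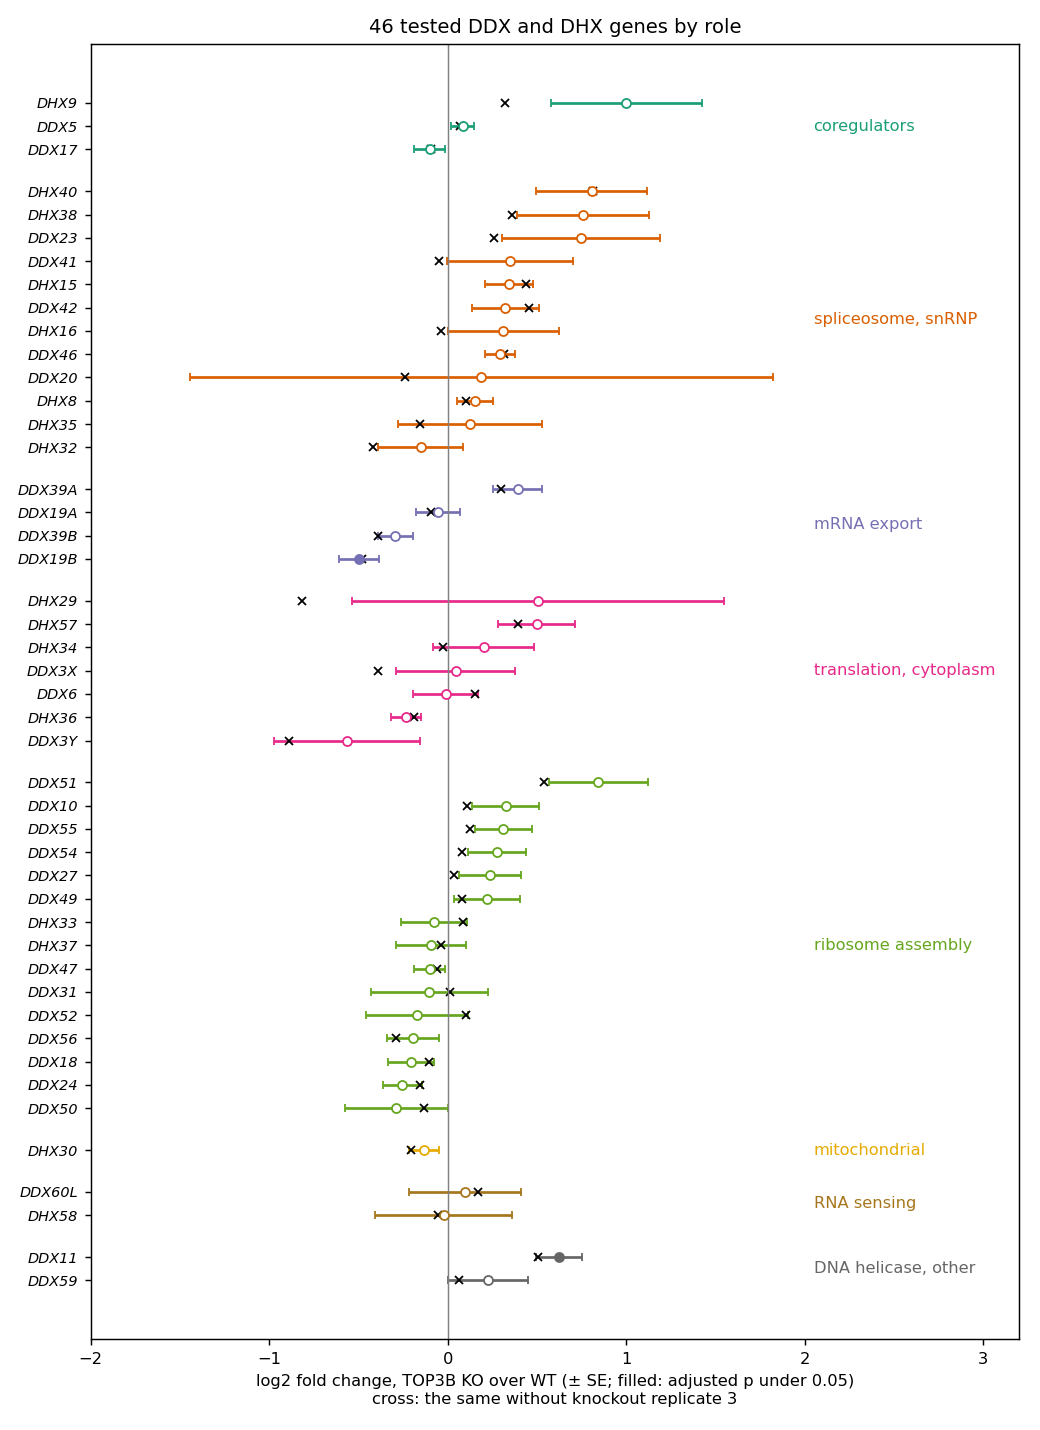
Log2 fold change of knockout over WT (x axis) for each of the 46 tested members, grouped by role, with bars of ± 1 SE, filled circles for the 2 members with an adjusted p under 0.05 and crosses for the fit without knockout replicate 3. Most circles sit within 0.5 of 0. The crosses of DHX29 and DHX9 lie farthest from their circles, followed by those of DDX23, DDX3X, DDX20, DDX41 and DHX38.

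The riser, DDX11, is an iron-sulphur DNA helicase that supports sister chromatid cohesion and carries the family name although it acts mainly on DNA. It was at 92.4, 88.9 and 78.6 CPM in WT and at 129, 119 and 153 CPM in the knockout. All 3 knockout libraries were above all 3 WT libraries. Its level of 86.7 ± 7.19 CPM in WT and 134 ± 17.8 CPM in the knockout (SD, n = 3 each) gave a 1.54-fold rise (log2 fold change 0.63 ± 0.13 SE; edgeR adjusted p = 0.0343). Without knockout replicate 3 it was 0.51 (adjusted p = 0.0214), and in the other 5 fits without 1 library the adjusted p was 0.0617 to 0.134. DDX11 lies on the plus strand of chromosome 12 from 31073845 to 31104791 (GRCh38, GENCODE v29). The 767 other tested genes of that chromosome had a median log2 fold change of 0.06, and of the 16 tested genes within 2 Mb none was called.

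DDX11 has close copies on the same chromosome, so its counts may not be wholly its own. The unprocessed pseudogenes DDX12P (chromosome 12, 9418673 to 9448229, minus strand) and DDX12B (9277235 to 9313241, plus strand), named here after their values were seen, were higher as well. DDX12P was at 13.7, 10.8 and 12.3 CPM in WT and 22.6, 24.3 and 23.2 CPM in the knockout, and DDX12B at 14.4, 13.1 and 12.8 against 26.0, 26.1 and 25.1 CPM. Both rose, 1.91-fold and 1.92-fold (edgeR adjusted p = 0.0166 and 0.0105), and in neither did the groups overlap. The 3 genes summed to 112 ± 8.39 CPM in WT and 183 ± 16.9 CPM in the knockout (SD, n = 3 each), 1.63 times as much and without overlap, and DDX11 is the largest part of that sum. Of all stretches of 101 bases, the read length, in the annotated DDX11 transcripts, 5.79% occur in DDX12B and 4.61% in DDX12P, and for 31 bases the shares are 20.2% and 18.9%. In the other direction, 20.01% of the 101-base stretches of DDX12B and 17.1% of those of DDX12P occur in DDX11. The ratio of DDX11 to DDX12B counts was 6.46 ± 0.327 in WT and 5.21 ± 0.805 in the knockout (SD, n = 3 each), without overlap (exact permutation test, two-sided, p = 0.1, the smallest that 3 against 3 libraries allow). That of DDX11 to DDX12P was 7.13 ± 0.975 in WT and 5.74 ± 0.871 in the knockout (SD, n = 3 each), with overlap (exact permutation test, two-sided, p = 0.2). How the estimated counts were divided among the 3 was not tested.

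How alike they are is seen in the middle 90 bases of the longest coding exon of DDX11, exon 3 of 27 in transcript ENST00000545668.5, with the best match in each pseudogene. The sequences are from GENCODE v29 (GRCh38), 5′ to 3′, and the capital marks the only base at which they differ. They lie at chr12:31083892-31083981 (plus strand), chr12:9438091-9438180 (minus strand, exon 3 of 27) and chr12:9293741-9293830 (plus strand, exon 4 of 29).
DDX11: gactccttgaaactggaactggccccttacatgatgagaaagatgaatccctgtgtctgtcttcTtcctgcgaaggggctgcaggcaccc
DDX12P: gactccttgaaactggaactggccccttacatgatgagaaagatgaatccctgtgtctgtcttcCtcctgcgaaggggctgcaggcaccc
DDX12B: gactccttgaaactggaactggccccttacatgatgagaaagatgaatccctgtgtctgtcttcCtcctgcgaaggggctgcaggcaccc
A read of 101 bases that covered such a stretch would have 1 base here to place it.

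The helicases of mRNA export held the one fall. DDX19A and DDX19B are the human forms of yeast Dbp5, which strips export factors from mRNA at the nuclear pore, DDX39A and DDX39B load the TREX export complex, DDX39B also acting early in spliceosome assembly, and DDX25 is a testis form. The 4 tested members had a median log2 fold change of -0.17 (-0.24 without knockout replicate 3). All 5 summed to 563, 513.7 and 552 CPM in WT and 436, 451 and 512.9 CPM in the knockout. The groups did not overlap, but knockout replicate 3 lay just below WT replicate 2. DDX39B makes up most of that sum. DDX19B was at 37.6, 38.4 and 35.6 CPM in WT and at 26.6, 27.1 and 25.4 CPM in the knockout, with no overlap and little spread in either group. It fell 1.41-fold (log2 fold change -0.50 ± 0.11 SE; edgeR adjusted p = 0.0454). Without knockout replicate 3 the log2 fold change was -0.48 (adjusted p = 0.0333), and in the other 5 fits without 1 library the adjusted p was 0.117 to 0.168. The call was also lost with limma-voom (adjusted p = 0.0505), with upper quartile scaling (0.0536), with library size alone (0.0591), without a filter (0.0845) and in both RPKM fits (0.108 and 0.111), in a range of 0.000356 (DESeq2) to 0.168 over all alternatives. It lies at 70289663 to 70335283 on the plus strand of chromosome 16 (GRCh38), upstream of DDX19A at 70346829 to 70373383. The other 669 tested genes of chromosome 16 had a median log2 fold change of 0.05.

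DDX19A did not follow its neighbour. It was at 48.0, 49.0 and 58.8 CPM in WT and 49.4, 48.4 and 52.2 CPM in the knockout, with overlapping groups and a log2 fold change of -0.05 ± 0.12 (SE; edgeR adjusted p = 0.820). The ratio of DDX19A to DDX19B counts was 1.27, 1.28 and 1.65 in the WT libraries and 1.86, 1.79 and 2.06 in those of the knockout. Every knockout ratio was above every WT ratio, and the exact permutation test (two-sided) gave p = 0.1, the smallest that 3 against 3 libraries allow. Both genes share sequence with an annotated gene that spans them, AC012184.2 (19.2% of the 101-base stretches of DDX19A and 26.5% of those of DDX19B). Of those of DDX19A 5.26% occur in DDX19B, and of those of DDX19B 9.60% occur in DDX19A. How the counts were divided among them was not tested. The middle 90 bases of the longest coding exon of DDX19B (chr16:70329904-70329993, plus strand, exon 9 of 12 in ENST00000563206.5) are set beside the match in DDX19A (chr16:70366697-70366786, plus strand, exon 9 of 12 in ENST00000302243.11), with the 2 bases that differ in capitals.
DDX19B: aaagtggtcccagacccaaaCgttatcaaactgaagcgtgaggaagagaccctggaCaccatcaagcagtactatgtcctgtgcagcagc
DDX19A: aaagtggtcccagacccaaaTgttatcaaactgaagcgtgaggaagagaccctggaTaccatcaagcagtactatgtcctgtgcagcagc

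The genes of the other export pair differed in sign, and neither passed. DDX39A was at 43.1, 38.3 and 39.2 CPM in WT and 45.3, 54.2 and 58.7 CPM in the knockout, all above WT (log2 fold change 0.39 ± 0.14 SE; edgeR adjusted p = 0.137). DDX39B was at 435, 388 and 417 CPM in WT and 315, 321 and 376 CPM in the knockout, all below WT (log2 fold change -0.29 ± 0.10 SE; edgeR adjusted p = 0.128). Without knockout replicate 3 DDX39B was called lower (log2 fold change -0.39, edgeR adjusted p = 0.0155, in a range up to 0.302 with another library left out). The ratio of DDX39A to DDX39B counts was 0.0973 ± 0.00292 in WT and 0.156 ± 0.0127 in the knockout (SD, n = 3 each), with no overlap (exact permutation test, two-sided, p = 0.1, the smallest possible). DDX39B lies on chromosome 6, where the 617 other tested genes had a median log2 fold change of -0.27. Over the 112 tested genes within 2 Mb of it the median was -0.19. The part of this shift in the value of DDX39B was not tested. DDX39B also shares 23.8% of its 101-base stretches with the read-through gene ATP6V1G2-DDX39B, which was at 210 to 440 counts per library. DDX25 had 2 to 10 counts per library and was not tested.

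Unlike the DDX19 pair, the DDX39 pair shares no stretch of 31 bases, so reads can be told apart. The middle of the longest coding exon of DDX39A (chr19:14413071-14413160, minus strand, exon 2 of 11 in ENST00000242776.8) and its best match in DDX39B (chr6:31540380-31540469, minus strand, exon 1 of 10 in ENST00000376177.6) differ at 26 of 90 bases, in capitals.
DDX39A: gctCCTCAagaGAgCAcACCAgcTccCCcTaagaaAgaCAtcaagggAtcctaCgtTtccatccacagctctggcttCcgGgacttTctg
DDX39B: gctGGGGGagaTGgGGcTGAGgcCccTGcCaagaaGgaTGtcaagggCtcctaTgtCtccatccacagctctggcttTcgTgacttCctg

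**Figure D2:**
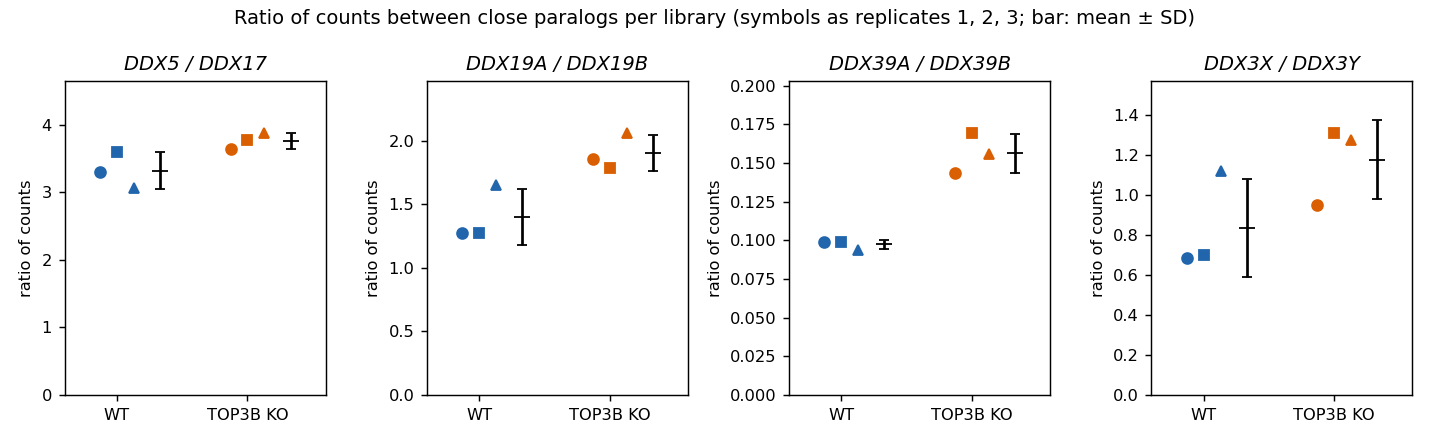
Ratio of estimated counts (y axis, from 0) between the 2 genes of 4 close pairs in each library, with circles, squares and triangles for replicates 1, 2 and 3 and bars for the mean ± SD of each group. The DDX5/DDX17, DDX19A/DDX19B and DDX39A/DDX39B ratios were higher in all 3 knockout libraries than in any WT library, and the DDX3X/DDX3Y ratios overlapped.

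None of the spliceosomal helicases passed in edgeR's test. The unadjusted p was under 0.05 for 3 of 12, a share like the 24.7% of all genes. DESeq2 called DDX46, where it called 15.7% of all genes. The log2 fold change was positive in 11 of the 12, with a median of 0.32, where 53.7% of all genes tested were positive. It was positive in 7 of the 12 without knockout replicate 3, with a median of 0.18, against 51.2% of all genes. This group takes in the helicases that drive the steps of splicing, among them DDX46, which remodels the U2 snRNP, DDX23, which releases U1, DHX16, DHX38 and DHX8, which act around the chemical steps, and DHX15, which takes the spent complex apart, together with DDX20, a partner of SMN in snRNP assembly. Their summed level was 582, 603 and 574 CPM in WT and 728, 702 and 720 CPM in the knockout, 1.22 times as high and without overlap. DDX46 was at 262, 271 and 248 CPM in WT and 339, 312 and 305 CPM in the knockout, all above WT (log2 fold change 0.29 ± 0.08 SE; edgeR adjusted p = 0.0812). Without knockout replicate 3 it was called (log2 fold change 0.32, edgeR adjusted p = 0.0294, in a range up to 0.255 with another library left out). DDX46 is the largest part of the group's sum, yet the other 11 members alone, a sum taken after the values were seen, did not overlap either. They summed to 326 ± 6.09 CPM in WT and 398 ± 14.3 CPM in the knockout (SD, n = 3 each).

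DHX15 was at 62.0, 61.7 and 72.1 CPM in WT and 90.2, 87.8 and 70.7 CPM in the knockout. Knockout replicates 1 and 2 were above WT and replicate 3 lay within it (log2 fold change 0.34 ± 0.14 SE; edgeR adjusted p = 0.177). Without knockout replicate 3 the log2 fold change was 0.44 (edgeR adjusted p = 0.0393, and 0.226 to 0.398 with another library left out). DDX42, a partner of the U2 factor SF3B, was at 69.4, 85.0 and 87.2 CPM against 126, 96.2 and 79.6 CPM, so replicate 3 lay within WT here too. Without DDX46, DHX15 and DDX42 the sum of the other 9 was 167 to 188 CPM in WT and 173 to 264 CPM in the knockout, and the groups overlapped. This choice was made after the values were seen, so the overlap does not test the other 9. In DDX23, DHX38, DDX41, DHX16, DHX8, DHX32 and DHX35 knockout replicate 3 stood above every other library, where 29.1% of all genes were highest there. DHX38 was at 17.5, 13.2 and 11.5 CPM in WT and 12.7, 23.6 and 35.1 CPM in the knockout, and DDX23 at 6.15, 4.41 and 4.23 against 3.79, 8.11 and 12.9 CPM. DHX40, whose role is not settled, had the largest log2 fold change of the group (0.81 ± 0.31 SE; edgeR adjusted p = 0.171) on 30 to 82 counts per library and shares 9.98% of its 101-base stretches with DHX40P1. DDX20 had 0, 26 and 0 counts in WT against 0, 15 and 15 in the knockout libraries.

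**Figure D3:**
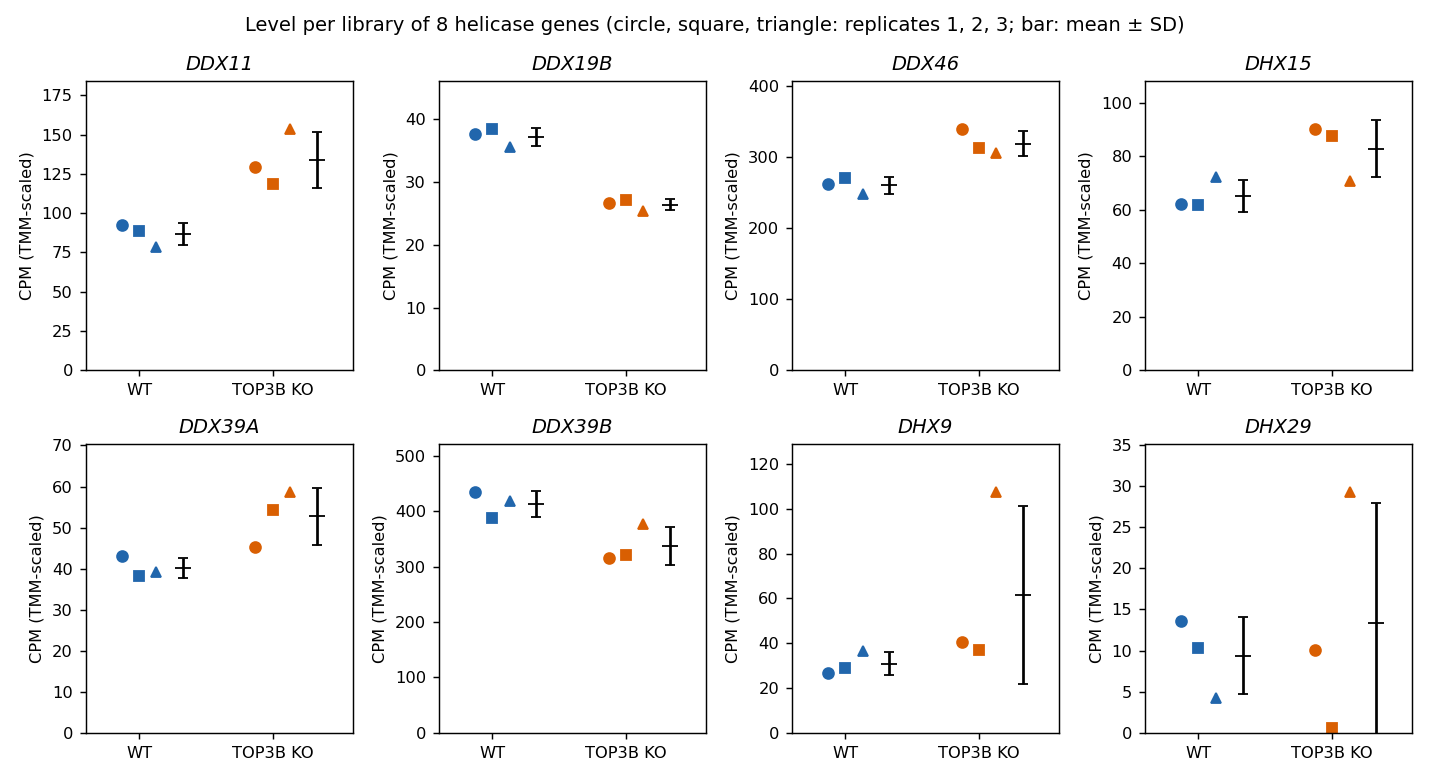
CPM per library (y axis, from 0) for 8 members, with WT in blue and knockout in orange, circles, squares and triangles for replicates 1, 2 and 3, and bars for the mean ± SD (the lower bar of DHX29 in the knockout runs below 0 and is not drawn there). DDX11, DDX46 and DDX39A show no overlap upwards and DDX19B and DDX39B none downwards, while DHX9 and DHX29 are set apart by knockout replicate 3.

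The transcription coregulators include the member with the highest level on each scale used here, DDX5. DDX5 and its paralog DDX17 act with the microRNA processor Drosha and as coactivators, and DHX9 unwinds RNA, DNA and R-loops. DDX5 alone gave 23.4% of the family's CPM in WT, while DHX9 was among the members of middle CPM. The group's median log2 fold change was 0.08 (0.07 without knockout replicate 3). DDX5 was at 1269, 1350 and 1352 CPM in WT and 1389, 1410 and 1411 CPM in the knockout. Every knockout value was above WT, but by only 1.06-fold (log2 fold change 0.08 ± 0.06 SE; edgeR adjusted p = 0.455). DDX17 was at 385, 375 and 442 CPM against 382, 374 and 365 CPM, with overlap (adjusted p = 0.520 by edgeR). The DDX5 to DDX17 ratio was 3.32 ± 0.272 in WT and 3.76 ± 0.119 in the knockout (SD, n = 3 each; exact permutation test, two-sided, p = 0.1). DHX9 had the largest fitted change of all tested members, and 1 library set it. It was at 26.7, 29.1 and 36.5 CPM in WT and at 40.6, 36.9 and 107 CPM in the knockout. All 3 were above WT, but replicate 2 exceeded the highest WT value by little and replicate 3 stood far above. The log2 fold change was 1.00 ± 0.42 (SE; edgeR adjusted p = 0.201, not called), and 0.32 without knockout replicate 3 (adjusted p = 0.243).

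Of the helicases of translation and cytoplasmic mRNA none passed in edgeR's test. An unadjusted p under 0.05 was found in 1 of the 7, where 24.7% of all genes had one. DESeq2 called 0 of the 7, where it called 15.7% of all genes. The log2 fold changes of these helicases were positive in 4 of 7 with a median of 0.05. Without knockout replicate 3 they were positive in 2 of 7 with a median of -0.19. The group summed to 572, 563 and 554 CPM in WT and 519, 485 and 506 CPM in the knockout, without overlap, and DHX36 makes up most of it. The other 6 alone, a sum taken after the values were seen, were at 187 ± 25.1 CPM in WT and 184 ± 27.0 CPM in the knockout (SD, n = 3 each) and overlapped. DHX36, which resolves G-quadruplexes, was at 358, 381 and 389 CPM in WT and 334, 328 and 295 CPM in the knockout, all below WT (log2 fold change -0.24 ± 0.08 SE; edgeR adjusted p = 0.144). The 9 other tested genes within 2 Mb of it on chromosome 3 had a median log2 fold change of -0.25. Over the 814 other tested genes of that chromosome the median was 0.06. Whether the values are linked was not tested. DDX6, the decapping and repression factor of P-bodies, was at 76.4, 89.6 and 91.1 CPM against 96.6, 95.2 and 63.3 CPM. DHX57 was at 8.92 to 14.2 CPM in WT and 16.6, 14.4 and 18.6 CPM in the knockout, without overlap (edgeR adjusted p = 0.212).

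DDX3X, which helps ribosomes scan structured leaders, and its Y-linked copy DDX3Y varied as much within groups as between them. DDX3X was at 41.2, 28.0 and 25.6 CPM in WT and 25.7, 22.8 and 49.3 CPM in the knockout. DDX3Y was at 60.2, 39.9 and 22.9 CPM in WT and 27.1, 17.4 and 38.7 CPM in the knockout. Neither passed (log2 fold change 0.05 ± 0.33 and -0.56 ± 0.41 SE; edgeR adjusted p = 0.947 and 0.439). Their ratio of 0.835 ± 0.246 in WT and 1.18 ± 0.198 in the knockout (SD, n = 3 each) overlapped (exact permutation test, two-sided, p = 0.2). DHX29, a scanning helicase bound to the small ribosomal subunit, varied most: the WT libraries held 238, 204 and 87 counts and the knockout libraries 204, 13 and 572, so its highest knockout level was 44.7 times its lowest.

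**Figure D4:**
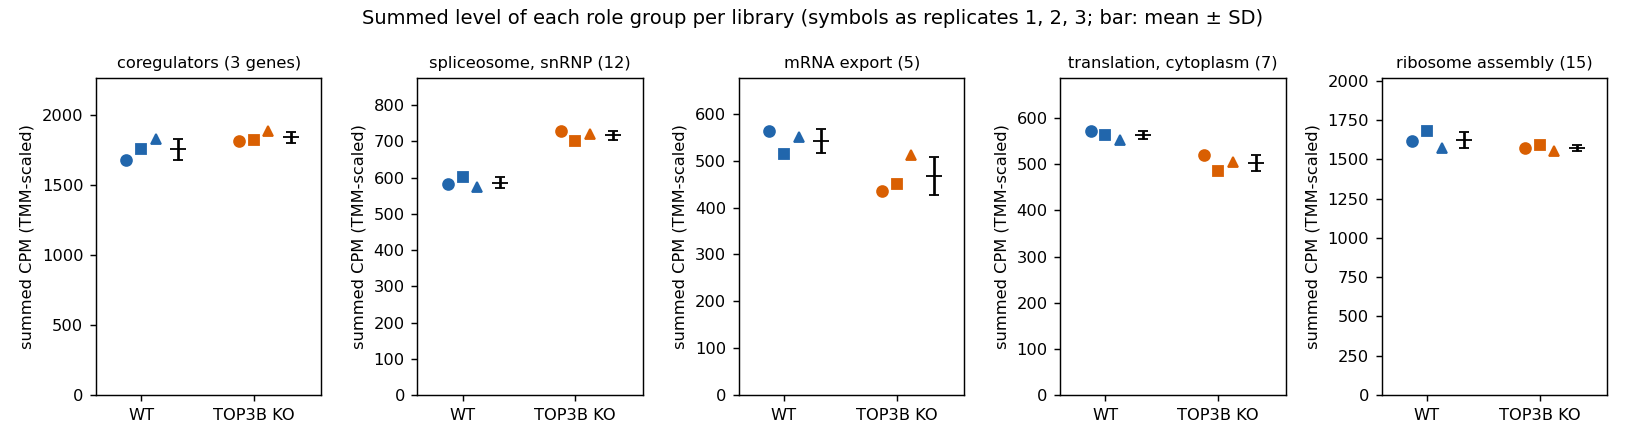
Summed CPM per library (y axis, from 0) of the 5 largest role groups, with circles, squares and triangles for replicates 1, 2 and 3 and bars for the mean ± SD. The spliceosome sums were higher in all 3 knockout libraries, the export and translation sums lower (the export sums by a narrow margin), and the coregulator and ribosome assembly sums overlapped.

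Ribosome assembly takes the most helicases, and the 15 measured here were divided in sign, 6 positive and 9 negative, and their median log2 fold change was -0.09. The balance turned without knockout replicate 3 to 9 positive and 6 negative, with a median of 0.04. None passed in edgeR's test. An unadjusted p under 0.05 was found in 1 of the 15, DDX51, where 24.7% of all genes had one. DESeq2 called DDX51 alone of the 15, where it called 15.7% of all genes. The sum of the 15 was 1617, 1680 and 1576 CPM in WT and 1575, 1590 and 1553 CPM in the knockout, and overlapped. DDX24, the most abundant, was at 609, 630 and 592 CPM in WT and 564, 540 and 434 CPM in the knockout, all below WT (log2 fold change -0.25 ± 0.11 SE; edgeR adjusted p = 0.217). DDX51, needed for maturation of the large subunit's RNA, showed the largest log2 fold change of the group. It was at 10.8, 13.6 and 10.7 CPM in WT and 20.2, 14.1 and 28.8 CPM in the knockout, all above WT (0.84 ± 0.28 SE; edgeR adjusted p = 0.119, and 0.54 with an adjusted p of 0.154 without knockout replicate 3). DDX55 also did not overlap, at 44.1 to 46.6 CPM in WT and 48.7 to 69.7 CPM in the knockout. DDX52 was at 63.7 to 75.2 CPM in WT and at 77.4 and 74.8 CPM in knockout replicates 1 and 2, but at 35.6 CPM in replicate 3. DDX50, a nucleolar paralog of DDX21, was at 6.05 to 9.28 CPM in WT and 4.71 to 8.26 CPM in the knockout. DDX10, DDX18, DDX27, DDX31, DDX47, DDX49, DDX54, DDX56, DHX33 and DHX37 overlapped between groups, with log2 fold changes from -0.21 for DDX18 to 0.32 for DDX10. Of these, DDX47 shares 31.2% of its 101-base stretches with APOLD1, an overlapping gene at 176 to 275 counts per library.

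Few of the remaining members were abundant. DHX30, which binds mitochondrial RNA and supports mitoribosome assembly, was at 467, 464 and 486 CPM in WT and 400, 426 and 466 CPM in the knockout, with overlap (log2 fold change -0.13 ± 0.08 SE; edgeR adjusted p = 0.370). DDX59, given no role here, was at 6.24 to 8.31 CPM in WT and 7.10 to 10.2 CPM in the knockout. Of the antiviral members, DHX58 (LGP2, a regulator of RNA sensing) was at 1.77 to 3.19 and 1.57 to 3.22 CPM. DDX60L was at 16.9, 19.1 and 37.8 CPM in WT and 28.0, 27.7 and 23.1 CPM in the knockout. Its neighbour on chromosome 4 and paralog, DDX60, an interferon-induced gene, had 0 counts in all but knockout replicate 2, where it had 6. A count of 0 allows up to 0.147 to 0.171 CPM in these libraries (3 counts, for counting error only). The germline helicases DDX4 (VASA) and DDX43 had at most 7 counts in any library. DDX4, DDX25, DDX43 and DDX60 were not tested. 

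Levels between genes can be compared only per length. The deposited RPKM values divide by a length close to the average stretch of genome that the transcripts cover, introns included: it was within 10% of that span for 35 of 50 members. For DDX5, however, the length was 1.99 times the span, for DDX17 0.88 times and for DDX24 0.90 times. The other members ranked by RPKM below were within 10%. In WT, DDX5 led at 251 ± 9.68 RPKM (SD, n = 3), above DDX39B at 62.0 ± 4.13 RPKM. DDX17 at 37.9 ± 3.92, DDX24 at 35.6 ± 0.628, DDX47 at 32.7 ± 1.36 and DDX54 at 30.8 ± 2.65 RPKM followed, and each neighbouring pair of these 4 differed by less than the larger of their SDs, apart from DDX24 and DDX47. DHX36 at 20.1 ± 0.980 and DHX30 at 19.2 ± 0.743 RPKM were again within their spread. Divided instead by the merged exon length of GENCODE v29, the WT order was DDX5 at 179 CPM per kilobase, DDX24 at 70.7, DDX47 at 63.0, DHX30 at 61.0 and DDX39B at 59.0. DDX5 was the highest on both scales, while DDX39B stood lower in the order per exon length. The spread of levels was wide, with 9 members above 100 CPM in WT, 27 from 10 to 100, 9 from 1 to 10 and 5 below 1 CPM in both groups.

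The 10 measured members known to act on R-loops or G-quadruplexes bear most directly on the stated purpose. DDX11 rose, none of the other 9 was called, and the median log2 fold change over the 10 was 0.02, against 0.05 over all genes tested, of which 7.84% were called. The median without knockout replicate 3 was -0.07, against 0.01 over all genes. In that fit DDX39B was called lower beside DDX11, where 13.2% of genes were called. DDX11, DDX5 and DHX9 were higher and DDX39B and DHX36 lower in all 3 knockout libraries than in WT, while DDX17, DDX18, DDX19A, DDX23 and DDX41 overlapped, where 33.6% of all genes did not overlap. Their summed level of 2746 to 2885 CPM in WT and 2751 to 2885 CPM in the knockout overlapped as well.

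Helicases of related families that carry other names, and cofactors of the members, were read from 2 further lists. Of 18 tested relatives 1 was called, higher, where 3.21% of all genes were, and the median log2 fold change was 0.20 (0.14 without knockout replicate 3). The riser was SNRNP200, the helicase that unwinds U4 from U6 to activate the spliceosome. It was at 108, 75.4 and 108 CPM in WT and 169, 152 and 218 CPM in the knockout, without overlap (log2 fold change 0.89 ± 0.19 SE; edgeR adjusted p = 0.0391, and 0.0416 at 0.72 without knockout replicate 3). The call was lost with log2(RPKM + 1) and log2(RPKM + 0.1) (limma-trend adjusted p = 0.0534 and 0.0511). The translation initiation helicases EIF4A1 and EIF4A2 were at 653 to 770 and 1058 to 1114 CPM in WT and 777 to 1307 and 1152 to 1197 CPM in the knockout. Neither passed (edgeR adjusted p = 0.242 and 0.394), and in neither did the groups overlap. Both were chosen after their values were seen. Of 40 tested cofactors 1 was called, lower, where 4.63% of all genes were, and the median was -0.0047. The median without knockout replicate 3 was 0.07, and EIF4G1, a scaffold of translation initiation, was called lower too (log2 fold change -0.30, edgeR adjusted p = 0.0073). In that fit 7.84% of genes were called lower. TFIP11, which recruits DHX15 to take spliceosomes apart, was at 192, 202 and 181 CPM in WT and 128, 135 and 138 CPM in the knockout, without overlap (log2 fold change -0.52 ± 0.09 SE; edgeR adjusted p = 0.0188). SNRNP200 and TFIP11 each passed in only 1 of the 6 fits without 1 library, that without knockout replicate 3, and the adjusted p reached 0.119 and 0.0974 without WT replicate 2.

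How far the members rest on knockout replicate 3 was seen by setting it against the other knockout libraries. It differed more than 2-fold from the mean of replicates 1 and 2 in 5 members, with DHX29, DHX9, DDX23 and DDX3X higher there and DDX52 lower. The median size of this log2 difference was 0.38 over the tested members and 0.37 over all genes tested. It was the highest of the 6 libraries in 22 members, where 29.1% of all genes were highest there, and the lowest in 10, where 27.3% were. Of the tested members with counts in every WT library, the highest WT level was more than 2 times the lowest in DDX3Y, DDX41, DDX60L, DHX29 and DHX35.

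**Figure D5:**
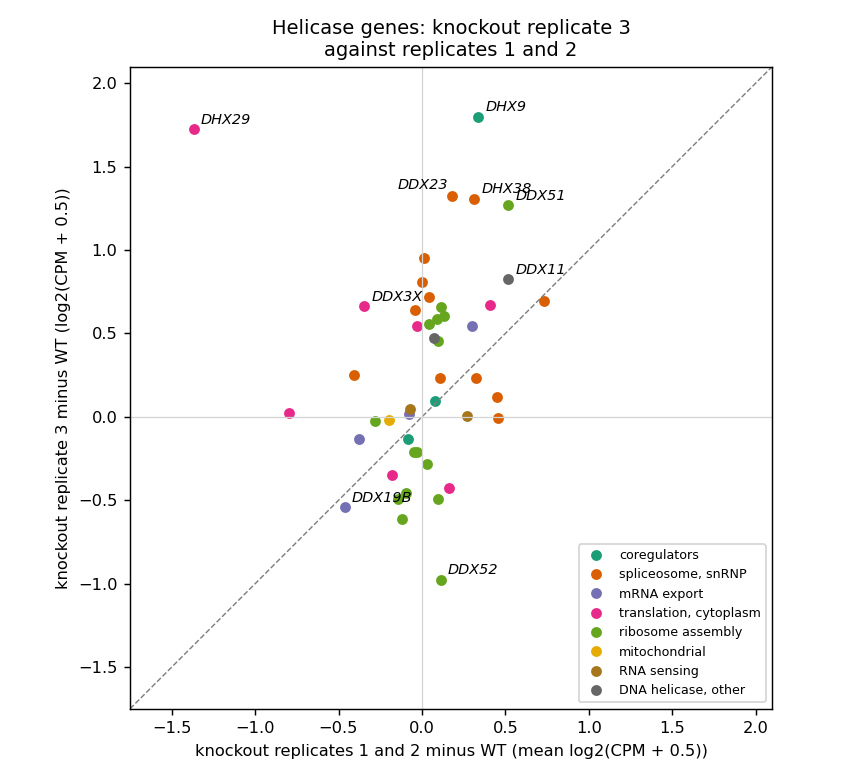
Each tested member's level in knockout replicate 3 (y axis) and in knockout replicates 1 and 2 (x axis, mean), both as log2(CPM + 0.5) minus the WT mean, coloured by role, with the line of equality dashed. DHX9, DHX29, DDX23, DHX38 and DDX51 lie above the line and DDX52 below it, while DDX19B lies close to it and DDX11 between.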

How the data were processed

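Total RNA was depleted of ribosomal RNA and made into directional libraries, read as pairs of 101 bases, per the labels' protocols. The deposited tables hold, per gene and library, an estimated count rounded to a whole number and an RPKM value, both made by the authors. Salmon 1.10.1 and the hg19 build are named in the submitters' processing notes, and what each was used for is not stated in the sources used here. Groups follow the labels. WT replicates are numbered in the labels, and knockout replicates by order of deposition.

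One row, named E2F1 in one table and E2F2 in the other, was left out. Genes passed filterByExpr, were scaled by TMM and tested with edgeR 4.0.16 (quasi-likelihood F test, in R 4.3.3). Adjustment was by Benjamini-Hochberg over the 13965 genes, with 0.05 as threshold. Standard errors come from the F statistic. The fits were also run on simulated counts with the same dispersion for every gene and no library set apart. That run does not cover the spread of knockout replicate 3. Alternatives were DESeq2 1.42.0, limma-voom and limma-trend (limma 3.58.1) on log2(RPKM + 1) or log2(RPKM + 0.1), other scalings and filters, and each library left out. Positions, exon lengths and transcript sequences are from GENCODE v29 (GRCh38), and shared stretches were counted on the transcript strand. No hg19 position is used. All 50 members matched by symbol.

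The members and lists were chosen with earlier results of these data known. Named genes were members that passed, the most abundant and most changed member of each role group, paralog pairs, members with few counts, and called genes of the other lists. Protein sequences were not used here.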

Additional observations from a re-analysis of the deposited data

How the results depend on the processing

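No paired analysis was possible because only the WT titles are numbered by replicate. With only 2 calls, the counts of members move easily: 3 members were higher with DESeq2 (DDX11, DDX46 and DDX51) and with log2(RPKM + 1) (DDX11, DDX46 and DHX40), and 2 with log2(RPKM + 0.1) and with library size alone (DDX11 and DDX46). None was lower with limma-voom, either RPKM fit, library size alone, upper quartile scaling or no filter. In the fits without 1 library, 0 to 3 members were higher and 0 to 2 lower, and 223 to 1899 genes were called in all. The members' median log2 fold change there was 0.024 (without knockout replicate 3) to 0.20 (without knockout replicate 1). In 14 to 22 members the groups did not overlap in these fits. Groups of 3 against 2 libraries lie apart more easily than 3 against 3. The share of all genes without overlap was not taken for these fits, so that count cannot be read as a rise. DESeq2 called 2199 genes in place of 1095. The directions of DDX11, DDX19B, DDX46, DDX39A and DDX39B were kept in all these fits. Values near 0 changed sign: DDX19A was 0.0057 with log2(RPKM + 1), 0.0082 with log2(RPKM + 0.1) and 0.0032 with library size alone, and DDX3X was -0.0036 with limma-voom. Without 1 library DDX19A was -0.12 to 0.041, DDX3X -0.39 to 0.27 and DDX60L -0.12 to 0.54. The cause was not tested. Library size alone moved the median of all genes from 0.05 to 0.11.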
